A study of Mus musculus with 3 samples.

Results

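Lysosomal genes were followed in granulocyte progenitors, the bone marrow cells that give rise to neutrophils. The set held 49 genes given by symbol, out of 24421 symbols in each library. It comprised cathepsins and other lysosomal proteases, glycosidases, sulfatases and lipid hydrolases, the cofactors of the hydrolases, lysosomal membrane proteins, the transcription factors that control them, and parts of the V-ATPase. RNA-seq was done on 1 library per group, from flow-sorted bone marrow cells of female mice. The 4T1-TB library came from F1 semi-syngeneic (H-2b/d) mice with 4T1 cells, a mouse mammary carcinoma line, implanted at the orthotopic site. The IRF8-deficient library came from C57BL/6 (H-2b) mice lacking IRF8, a transcription factor that directs myeloid progenitors toward monocytes and dendritic cells and restrains the neutrophil lineage. The NTB library came from F1 semi-syngeneic (H-2b/d) mice without a tumor and served as control. IRF8 deficiency and strain thus change together, and their effects cannot be told apart. The sources used here give neither the age of the mice nor their number per library, the time after implantation or the form of the Irf8 allele.

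Lysosomes digest proteins, sugars, sulfated chains and lipids taken up by the cell or delivered by autophagy. Their hydrolases need an acid lumen, which the V-ATPase provides: its V1 sector in the cytosol splits ATP and drives its V0 sector in the membrane to pump protons. TFEB, TFE3 and MITF, helix-loop-helix factors of the MiT/TFE family, bind E-box letters in the promoters of many lysosomal genes, the so-called CLEAR element. In neutrophil precursors the lysosomal pathway also supplies the primary granules, which carry acid hydrolases and CD63 beside myeloperoxidase and elastase.

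The unit is RPKM, the deposited read number scaled to gene length and library size. Recovered reads came to 23773824 in 4T1-TB, 36396560 in IRF8-deficient and 43034420 in NTB, and at the median length of the set an RPKM of 1 rested on 60.7, 71.4 and 122 reads in that order. Irf8 itself was at 8.60 RPKM in 4T1-TB, 13.7 RPKM in IRF8-deficient and 43.8 RPKM in NTB, so transcript was still counted in the IRF8-deficient library. Granulocyte progenitor markers summed to 20916 RPKM in 4T1-TB, 10424 in IRF8-deficient and 17541 in NTB over 10 genes, with Mpo, which encodes myeloperoxidase, at 6749, 4012 and 6811 RPKM in 4T1-TB, IRF8-deficient and NTB. For mature neutrophil markers the summed RPKM over 13 genes was 1305 in 4T1-TB, 34047 in IRF8-deficient and 1356 in NTB, and 8 of 13 were at least 2-fold higher in 4T1-TB and 12 of 13 in IRF8-deficient than in NTB. Ngp, Camp and Ltf made up most of each sum, so the sums follow these genes and are no count of mature neutrophils. Ngp was at 424, 16528 and 632 RPKM in 4T1-TB, IRF8-deficient and NTB. In that order Camp was at 340.3, 11611 and 546 RPKM, and Ltf at 65.0, 4856 and 75.2 RPKM. Monocyte and macrophage markers summed to 204 RPKM in 4T1-TB, 269.6 in IRF8-deficient and 359 in NTB over 16 genes, and without Vcam1 to 133, 259 and 259.7. Members differed in direction: Adgre1, which encodes the macrophage antigen F4/80, was at 1.05, 9.22 and 2.39 RPKM, and Vcam1 at 71.3, 10.5 and 99.6 RPKM, in 4T1-TB, IRF8-deficient and NTB. The 20 highest genes took 15.3% of reads in 4T1-TB, 29.8% in IRF8-deficient and 10.3% in NTB. The part of these differences between the libraries in the lysosomal values below was not tested, and in sorted cells a change in the mix of cells and a change in RNA per cell cannot be told apart.

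The lysosomal genes were among the better expressed genes of these progenitors. Of the 49, 32 in 4T1-TB, 34 in IRF8-deficient and 33 in NTB lay above the median of all genes compared. Comparisons covered the genes at or above 1 RPKM in any library, which 46 of the 49 and 10658 of all symbols were. The median level of the 46 was 28.8 RPKM in 4T1-TB, 27.1 in IRF8-deficient and 27.1 in NTB, against 12.1, 12.5 and 12.1 RPKM over all genes compared. Ctsf, Ctsk and Lgmn were below that minimum. Together the 49 genes took 0.545% of reads in 4T1-TB, 0.463% in IRF8-deficient and 0.574% in NTB.

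**Figure D1:**
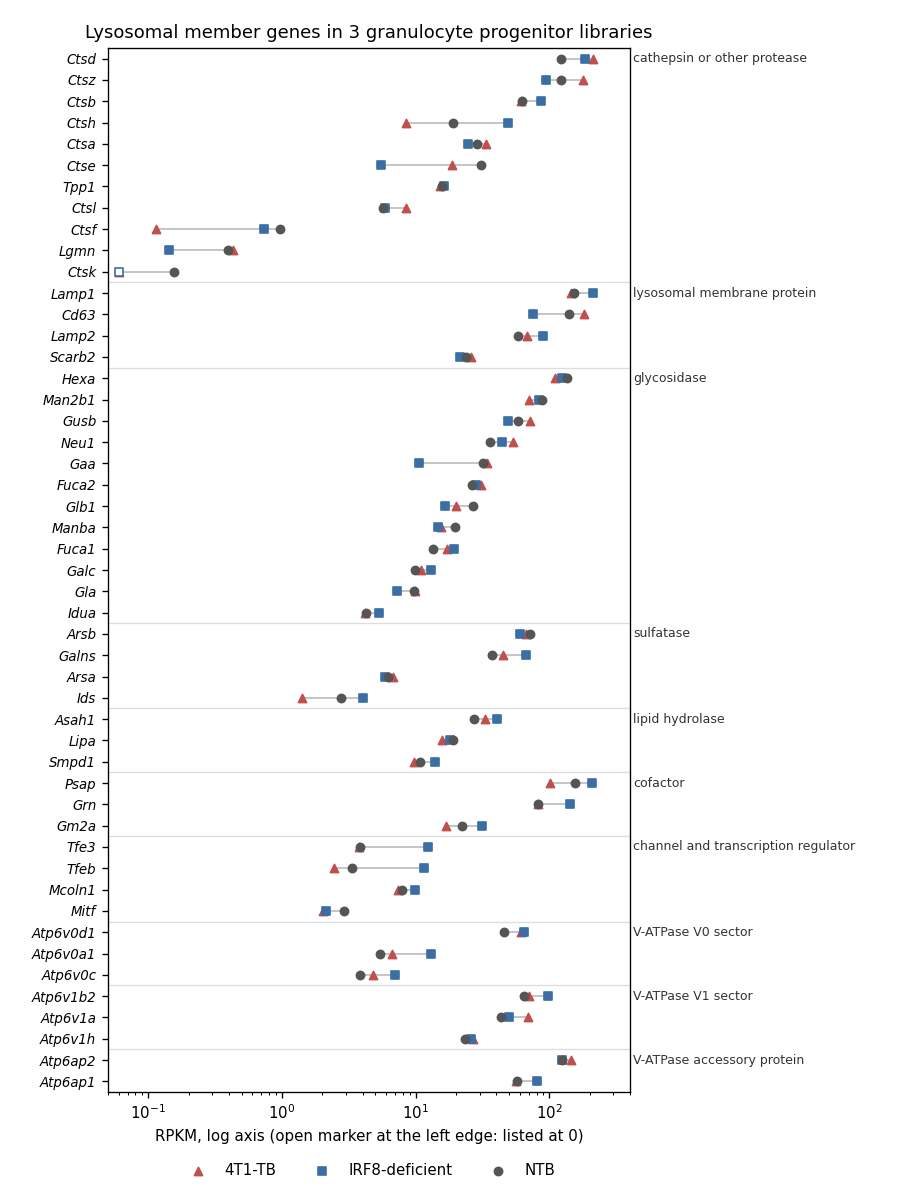
RPKM of each of the 49 lysosomal genes (log axis) in the 4T1-TB, IRF8-deficient and NTB libraries, grouped by role, with a grey line joining the 3 values of a gene. Ctsd reached 212 RPKM in 4T1-TB, and Ctsk, listed at 0 in 4T1-TB and IRF8-deficient, is drawn with open markers that lie on each other at the left edge.

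Differences were taken on log2(RPKM + 1), a scale that understates the difference of low genes, and a gene is called higher or lower from a 2-fold difference on that scale. With 1 library per group no test was possible. The intervals given are 95% intervals for counting error (exact Poisson for a level, Clopper-Pearson for a ratio); they leave out the spread between mice, which was not measured. Both comparisons with NTB use the same NTB library.

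Most lysosomal genes stayed under a 2-fold difference between tumor-bearing and control progenitors, as did most of all genes compared. In 4T1-TB against NTB 0 of the 46 were called higher, beside 1.67% of all genes compared, and 1 was called lower (2.17%), beside 1.35% of all genes. That gene was Ctsh. These counts lie near the background and show nothing particular to the lysosomal genes. The median difference was 0.05 for the 46 genes and 0.01 over all genes. Of the 46, 24 were above 0 (52.2%), beside 51.0% of all genes compared. Among the genes not called, Ctsd had the highest difference, at 0.79, and Ctse the lowest, at -0.70. Both differ from NTB beyond counting error.

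More genes passed 2-fold in IRF8-deficient against NTB, as they did across the whole transcriptome. Ctsh, Tfeb, Tfe3 and Atp6v0a1 were called higher, which is 8.70% of the 46 beside 8.78% of all genes compared. Ctse and Gaa were called lower, 4.35% beside 5.73%. Both shares are near the background, so the counts show nothing particular to the lysosomal genes. The median difference was 0.28, against -0.02 over all genes. Of the 46, 29 were above 0 (63.0%), beside 48.4% of all genes compared. Beside these values stands the sum over the mature neutrophil marker list, at 34047 RPKM in IRF8-deficient, against 1356 in NTB. Most of that sum came from Ngp, Camp and Ltf, so it is no count of mature neutrophils. Its part in the lysosomal values was not tested. The signs depend on the scaling: when RPKM is recomputed from the summed recovered reads, the median of all genes moves to -0.50, that of the 47 lysosomal genes that then reach 1 RPKM to -0.25 (-0.22 over the same 46). On that scale 1 gene is called higher (Tfeb), beside 4.25% of all genes, and 4 lower (Ctse, Cd63, Glb1 and Gaa), beside 17.5%.

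The IRF8-deficient and 4T1-TB libraries were also set against each other. Ctsh, Ids, Psap, Tfeb and Tfe3 were called higher in IRF8-deficient, 10.9% of the 46 beside 8.83% of all genes, and Ctse, Cd63 and Gaa lower, 6.52% beside 7.07%. The median difference was 0.17, against -0.00 over all genes, and with scaling by summed reads it was -0.18 over 47 genes, with 3 called higher, beside 4.65% of all genes, and 4 lower, beside 13.9%. On the deposited scale 14 of the 46 genes had their highest value in IRF8-deficient and their lowest in 4T1-TB: Ctsb, Ctsh, Tpp1, Lamp1, Idua, Ids, Smpd1, Psap, Gm2a, Grn, Mcoln1, Tfeb, Tfe3 and Atp6ap1. For Ctsb, Tpp1, Idua, Grn, Mcoln1, Tfe3 and Atp6ap1 the levels in 4T1-TB and NTB did not differ beyond counting error. The share of all genes with that order was not counted, so the 14 have no background to be read against. With scaling by summed reads 6 genes had that order, 5 of them among the 14 (Ctsh, Ids, Grn, Tfeb and Tfe3). On the deposited scale another 8 of the 46 were highest in NTB. The highest of the 3 libraries was a median of 1.46 times the lowest for the 46 lysosomal genes. It was 1.54 times for the 10604 genes compared with a value above 0 in every library. Of the 46, 26 (56.5%) stayed under 1.5 times, against 46.8% of the 10604. The background was not matched for level, and the lysosomal genes were the better expressed.

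**Figure D2:**
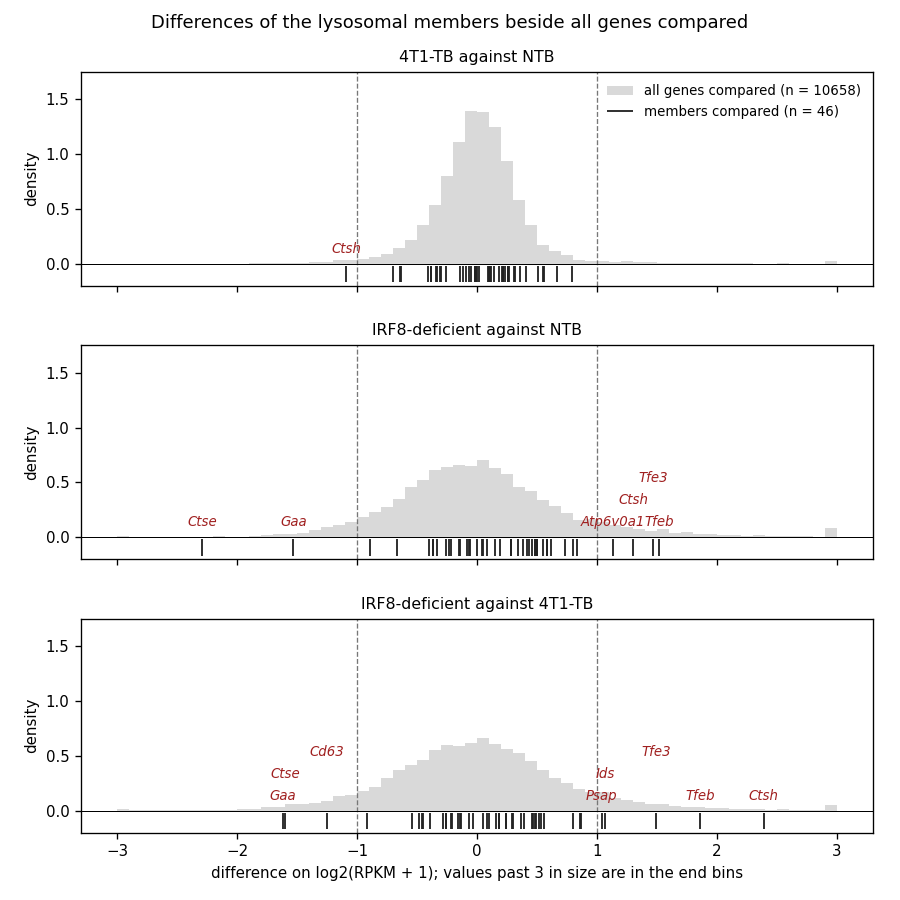
Each tick below an axis is 1 of the 46 lysosomal genes at its difference on log2(RPKM + 1), and the grey histogram shows the density of all 10658 genes compared. Dashed lines mark a 2-fold difference, and the named genes lie beyond them, from Ctse at -2.29 in IRF8-deficient against NTB to Ctsh at 2.39 in IRF8-deficient against 4T1-TB.

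Among the regulators, Tfeb and Tfe3 were higher in the IRF8-deficient library than in both others. Tfeb (chr17:47737030-47792419 in mm10, plus strand) encodes TFEB, a main activator of lysosomal genes, and was at 2.44 RPKM in 4T1-TB, 11.5 in IRF8-deficient and 3.36 in NTB. The IRF8-deficient library stood apart, at 3.43-fold NTB (3.05 to 3.86) and 4.72-fold 4T1-TB (3.97 to 5.65). Tfe3 (chrX:7762560-7775202, plus strand), its close relative, was at 3.77 RPKM in 4T1-TB, 12.4 in IRF8-deficient and 3.84 in NTB. This was 3.22-fold NTB (2.92 to 3.55) in IRF8-deficient cells, while 4T1-TB and NTB did not differ beyond counting error. Mitf, the third member of the family with a known role at lysosomes, was at 2.02, 2.12 and 2.93 RPKM in 4T1-TB, IRF8-deficient and NTB, and was called in no comparison. Mcoln1, which encodes the lysosomal calcium channel TRPML1, was at 7.40, 9.87 and 7.93 RPKM in the same order, also with no call. A low level limits these calls: with a pseudocount of 5 in place of 1 the differences of Tfeb and Tfe3 from NTB came to 0.98 and 0.97, just short of 2-fold, and with scaling by summed reads that of Tfe3 to 0.98. With the pseudocount of 5 the difference of Tfe3 between IRF8-deficient and 4T1-TB came to 0.99.

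Most of the MiT/TFE transcript of these cells came from another gene of the family. Tfec, the remaining family member, is not in the set and is given after its value was seen: it was at 61.1 RPKM in 4T1-TB, 46.3 in IRF8-deficient and 60.0 in NTB. It made up 88.1%, 64.0% and 85.6% of the summed RPKM of the 4 family genes in 4T1-TB, IRF8-deficient and NTB. The share of Tfeb was 3.52% in 4T1-TB, 15.9% in IRF8-deficient and 4.78% in NTB, and that of Tfe3 was 5.44%, 17.1% and 5.48%. The family sum itself was alike, at 69.3, 72.3 and 70.2 RPKM in 4T1-TB, IRF8-deficient and NTB.

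The E-box letters that these factors bind were looked for in RefSeq promoter windows (GRCm38.p6), which run from 250 bases before to 50 bases after the start of a gene. Of the 49 genes 42 had a window, and Asah1, Atp6v1b2, Atp6v1h, Ctsb, Ctse, Ctsh and Galns had no entry. Searched on both strands, the hexamer CACGTG was in 13 of 42 windows (31.0%), against 12.4% of the genes compared and 8.09% of all windows. Lysosome genes outside the set held it in 19 of 78 windows (24.4%). The longer TCACGTGA, which holds the hexamer, was in 6 of the 42 (14.3%), against 2.36% of the genes compared and 1.12% of all windows. In the other lysosome genes it was in 10.3%. The same 8 letters with a G before and a C after them were in 0 of the 42, in 2.56% of the other lysosome genes and in 0.930% of the genes compared. Upstream stretches of 4 genes of the set are given to show how the letters lie, in lower case and 5′ to 3′ on the strand of the gene, with each CACGTG in capitals. They are the aspartic protease gene Ctsd (chr7:142387828-142388077, minus strand), the membrane protein gene Lamp1 (chr8:13158911-13159160, plus strand), the channel gene Mcoln1 (chr8:3500269-3500518, plus strand) and Gaa (chr11:119267713-119267962, plus strand), which was chosen as the called gene with the hexamer.
Ctsd: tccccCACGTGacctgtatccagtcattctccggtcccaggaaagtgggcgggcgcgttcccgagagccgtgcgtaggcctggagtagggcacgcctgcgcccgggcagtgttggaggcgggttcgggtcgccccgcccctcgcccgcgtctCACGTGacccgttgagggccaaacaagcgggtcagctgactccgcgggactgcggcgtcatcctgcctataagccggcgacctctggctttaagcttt
Lamp1: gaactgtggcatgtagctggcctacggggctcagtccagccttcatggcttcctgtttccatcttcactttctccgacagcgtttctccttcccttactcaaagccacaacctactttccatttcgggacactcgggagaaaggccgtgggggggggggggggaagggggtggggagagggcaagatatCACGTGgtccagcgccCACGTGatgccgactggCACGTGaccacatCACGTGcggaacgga
Mcoln1: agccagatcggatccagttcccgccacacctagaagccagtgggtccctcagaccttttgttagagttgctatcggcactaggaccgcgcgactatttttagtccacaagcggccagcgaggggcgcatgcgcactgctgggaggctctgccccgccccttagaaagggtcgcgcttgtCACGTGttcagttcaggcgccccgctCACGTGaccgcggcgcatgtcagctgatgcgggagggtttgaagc
Gaa: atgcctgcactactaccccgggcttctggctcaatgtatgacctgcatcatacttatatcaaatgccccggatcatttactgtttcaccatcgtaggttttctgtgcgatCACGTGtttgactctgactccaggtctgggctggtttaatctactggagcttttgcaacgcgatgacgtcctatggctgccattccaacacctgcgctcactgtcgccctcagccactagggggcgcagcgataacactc
Lamp1 held 4 copies of the hexamer close to its start, while Ctsd and Mcoln1 held 2 each and Gaa 1. The other genes with it were Arsa, Atp6v0d1, Atp6v1a, Ctsa, Ctsf, Ctsl, Gla, Glb1 and Lgmn. Genes with and without the hexamer had these differences: in IRF8-deficient against NTB, where Tfeb and Tfe3 were higher, the 11 compared genes with it had a median of 0.05 and the 28 without it a median of 0.28. Tfeb and Tfe3 are themselves among the genes without CACGTG, and so without TCACGTGA. For TCACGTGA the order in that comparison was the other way, with a median of 0.24 over the 6 genes with it and 0.08 over the 33 without it. In 4T1-TB against NTB the medians for CACGTG were 0.10 with it and -0.02 without it, and in IRF8-deficient against 4T1-TB they were -0.26 and 0.21. For TCACGTGA they were 0.32 and -0.02 in 4T1-TB against NTB, and -0.30 and 0.18 in IRF8-deficient against 4T1-TB. The composite element that IRF8 binds together with the factor PU.1 (GGAA, any 2 bases, then GAAA) was in 1 window of the 42 (2.38%, Scarb2). It was in 2.56% of the other lysosome genes and 2.86% of the genes compared. A match of letters is not a measured binding site, and windows of 300 bases leave out more distant ones.

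**Figure D3:**
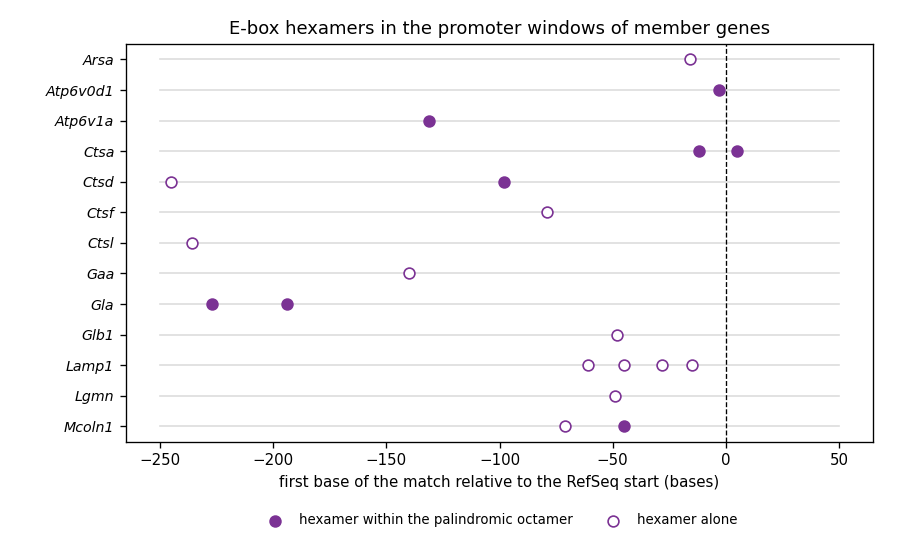
Positions of CACGTG in the promoter windows of the 13 lysosomal genes that hold it, in bases from the RefSeq start (dashed line), with filled points where it lies within TCACGTGA. Lamp1 has 4 points, all within 61 bases of its start.

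Among the proteases, the aspartic protease gene Ctsd and the carboxypeptidase gene Ctsz were the most abundant, and Ctse and Ctsh varied most among the proteases compared. Ctse (chr1:131638306-131675505, plus strand) encodes cathepsin E, an aspartic protease of endosomes, and was at 18.6 RPKM in 4T1-TB, 5.47 in IRF8-deficient and 30.7 in NTB. IRF8-deficient cells had the least, 5.61-fold lower than NTB (4.99 to 6.34) and 3.40-fold lower than 4T1-TB (2.98 to 3.88). The 4T1-TB level was 1.65-fold below NTB (1.53 to 1.79), which is not a call. Ctsh (chr9:90054152-90076089, plus strand) encodes cathepsin H, an aminopeptidase of the papain family, and went the other way in IRF8-deficient cells. It was at 8.46 RPKM in 4T1-TB, 48.6 in IRF8-deficient and 19.1 in NTB. Of the 46 genes it alone was called in all 3 comparisons: 2.26-fold lower in 4T1-TB than in NTB (2.00 to 2.57), 2.54-fold higher in IRF8-deficient than in NTB (2.37 to 2.72), and 5.74-fold higher in IRF8-deficient than in 4T1-TB (5.09 to 6.49). The call in 4T1-TB does not hold with a pseudocount of 5 (-0.84), nor that in IRF8-deficient against NTB with scaling by summed reads (0.78).

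The remaining proteases were not called. Ctsd was at 212 RPKM in 4T1-TB, 183 in IRF8-deficient and 122 in NTB, the highest of the 49 genes in 4T1-TB. It shares 38.0% of its exon bases with an overlapping annotated gene on its own strand, so its level is uncertain. Ctsz was at 178, 94.0 and 121 RPKM in 4T1-TB, IRF8-deficient and NTB, above NTB in 4T1-TB and below it in IRF8-deficient. Ctsb, a cysteine protease gene, had 61.3, 86.6 and 61.8 RPKM, and shares 16.3% of its exon bases with Fdft1 on the opposite strand. Ctsa, whose product protects beta-galactosidase and neuraminidase, had 33.8, 24.4 and 28.7 RPKM. It shares 13.5% of its exon bases with Pltp and 8.82% with Neurl2, both on the opposite strand. Tpp1, a tripeptidyl peptidase gene, was the steadiest of the 46, at 15.1, 16.2 and 15.7 RPKM. Ctsl was low, with 8.52, 5.91 and 5.68 RPKM. The asparaginyl endopeptidase gene Lgmn, the cysteine protease gene Ctsf and Ctsk, for the collagen-degrading protease of osteoclasts, were near 0. Lgmn had 18, 7 and 33 reads in 4T1-TB, IRF8-deficient and NTB, Ctsf 5, 38 and 85 reads, and Ctsk 0, 0 and 11 reads. For Ctsk a count of 0 allows up to 3 reads, or 0.0853 RPKM in 4T1-TB and 0.0726 RPKM in IRF8-deficient. The summed level of the 11 protease genes was 536 RPKM in 4T1-TB, 465 in IRF8-deficient and 407 in NTB.

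Of the lysosomal membrane protein genes, Lamp1 and Cd63 were among the most abundant of the set, and Scarb2 lay below its median. Cd63 (chr10:128900989-128912822, plus strand), a tetraspanin gene of late endosomes and primary granules, was at 181 RPKM in 4T1-TB, 75.4 in IRF8-deficient and 140.2 in NTB. IRF8-deficient was the low library, 2.40-fold below 4T1-TB (2.28 to 2.52), and its difference from NTB was -0.89, which passes 2-fold when the 20 highest genes are left out of the scaling (-1.07). Lamp1 and Lamp2 encode the heavily glycosylated proteins that line the lysosomal membrane. Lamp1 was at 146 RPKM in 4T1-TB, 211 in IRF8-deficient and 153 in NTB, and Lamp2 at 67.8, 89.4 and 58.0 RPKM. On the deposited scale both were thus highest in IRF8-deficient, where Cd63 was lowest, without a call. With scaling by summed reads only 1 of the 4 membrane protein genes was above 0 in IRF8-deficient against NTB, so this does not hold for both. Scarb2, the gene of the membrane protein that carries glucocerebrosidase to lysosomes, had 25.8, 21.4 and 23.7 RPKM.

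Of the 12 glycosidase genes only Gaa passed 2-fold in any comparison. Gaa (chr11:119267887-119285454, plus strand) encodes the acid alpha-glucosidase that breaks down glycogen in lysosomes, and was at 34.3 RPKM in 4T1-TB, 10.5 in IRF8-deficient and 32.1 in NTB. IRF8-deficient cells stood alone, 3.06-fold lower than NTB (2.87 to 3.28) and 3.28-fold lower than 4T1-TB (3.05 to 3.52). Hexa, which encodes the alpha chain of beta-hexosaminidase, was the most abundant glycosidase gene, at 110.3, 123 and 136 RPKM in 4T1-TB, IRF8-deficient and NTB. Neu1, a sialidase gene, had 53.6, 43.9 and 36.1 RPKM, and Glb1, the beta-galactosidase gene, had 19.9, 16.5 and 26.9. Genes of the enzymes that take mannose and fucose from glycoproteins differed in direction, with Fuca1 highest and Manba lowest in IRF8-deficient. Man2b1 was at 70.2, 83.2 and 87.2 RPKM, Manba at 15.4, 14.7 and 19.6, Fuca1 at 17.0, 19.4 and 13.4, and Fuca2 at 30.9, 28.2 and 26.5. Gusb, which encodes beta-glucuronidase, had 71.6, 49 and 57.8 RPKM. The lowest glycosidase genes were Galc at 10.9, 13.1 and 9.79 RPKM, Gla at 9.80, 7.26 and 9.68, and Idua at 4.15, 5.35 and 4.23. The 12 genes summed to 448 RPKM in 4T1-TB, 414 in IRF8-deficient and 459.5 in NTB, and their median differences from NTB were 0.05 in 4T1-TB and -0.11 in IRF8-deficient.

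Sulfatase and lipid hydrolase genes showed 1 call. Ids (chrX:70343069-70365084, minus strand), whose enzyme removes sulfate from heparan and dermatan sulfate, was at 1.40 RPKM in 4T1-TB, 4.05 in IRF8-deficient and 2.75 in NTB. The IRF8-deficient level was 2.89-fold that of 4T1-TB (2.41 to 3.48), with NTB between them, and the call rests on 526 reads against 155. The call of Ids does not hold with scaling by summed reads (0.76), with a pseudocount of 5 (0.50) or without the 20 highest genes in the scaling (0.99). Galns, another sulfatase gene, was at 44.9, 66.9 and 37.3 RPKM in 4T1-TB, IRF8-deficient and NTB, a difference of 0.83 between IRF8-deficient and NTB. Arsa, the gene of arylsulfatase A, had 6.73, 5.92 and 6.23 RPKM, and Arsb 66.4, 60.0 and 72.0. Arsb shares 48.2% of its exon bases with 1 overlapping gene, and Arsa 19.8%, so these levels are uncertain. The 3 lipid hydrolase genes were Asah1 for acid ceramidase, Smpd1 for acid sphingomyelinase and Lipa for the acid lipase of cholesterol esters. Asah1 had 32.8, 40.5 and 27.3 RPKM, Smpd1 9.75, 14.0 and 10.8, and Lipa 15.8, 18.0 and 19.1, in 4T1-TB, IRF8-deficient and NTB.

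On the deposited scale the 3 cofactor genes were each highest in IRF8-deficient and lowest in 4T1-TB, where Grn was level with NTB. Psap (chr10:60277627-60302597, plus strand) encodes prosaposin, which is cut into the saposins that present sphingolipids to their hydrolases. It was at 100.1 RPKM in 4T1-TB, 207 in IRF8-deficient and 155 in NTB, and was called in 1 comparison, 2.07-fold higher in IRF8-deficient than in 4T1-TB (2.01 to 2.13). Gm2a, for the activator of GM2 ganglioside breakdown, had 16.8, 31.3 and 22.1 RPKM. Grn, for progranulin, a secreted and lysosomal glycoprotein, had 81.5, 143 and 81.5 RPKM. Neither was called, with Grn at 0.80 and Gm2a at 0.48 in IRF8-deficient against NTB. The cofactors summed to 198 RPKM in 4T1-TB, 381 in IRF8-deficient and 259 in NTB. The call of Psap does not hold without the 20 highest genes in the scaling (0.98) or with scaling by summed reads (0.66). With scaling by summed reads 1 of the 3 stays above 0 in IRF8-deficient against NTB, with a median of -0.04, which is 0.45 above the median of all genes.

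**Figure D4:**
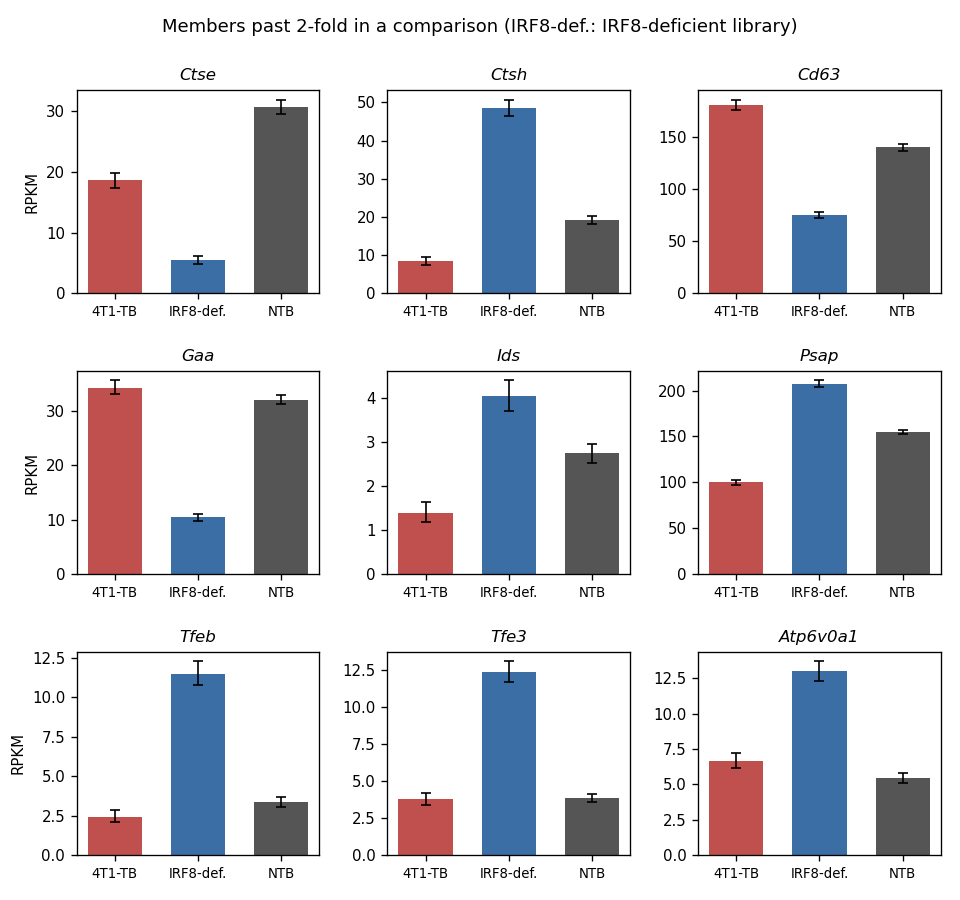
RPKM of the 9 lysosomal genes called in at least 1 comparison, with 1 bar for each of the 4T1-TB, IRF8-deficient and NTB libraries, axes from 0, and exact Poisson 95% intervals for counting error. Tfeb, Tfe3 and Atp6v0a1 are highest in IRF8-deficient, while Ctse, Gaa and Cd63 are lowest there.

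Genes of the V-ATPase lay slightly above NTB in both other libraries on the deposited scale, mostly without a call, but most of the 8 were below NTB in IRF8-deficient when scaled by summed reads. Of the 8 in the set, 7 were above 0 in 4T1-TB against NTB, with a median of 0.24, and 7 in IRF8-deficient against NTB, with a median of 0.50. Against the median of all genes these values were 0.23 and 0.52 higher. With scaling by summed reads, 3 of the 8 stay above 0 in IRF8-deficient against NTB (median -0.03), which is 0.46 above the median of all genes, and 6 of the 8 in 4T1-TB (median 0.09). The summed level was 439.5 RPKM in 4T1-TB, 462 in IRF8-deficient and 367 in NTB.

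In the V0 sector, Atp6v0a1 (chr11:101009452-101063719, plus strand), 1 of 4 genes for the large subunit a, was at 6.68 RPKM in 4T1-TB, 13 in IRF8-deficient and 5.42 in NTB. It was called higher in IRF8-deficient, at 2.40-fold NTB (2.21 to 2.61). This call is lost with a pseudocount of 5 (0.79), without the 20 highest genes in the scaling (0.95) and with scaling by summed reads (0.64). Atp6v0d1, the gene of subunit d, was at 61.0, 64.5 and 45.7 RPKM in 4T1-TB, IRF8-deficient and NTB. Atp6v0c, the gene of the proton-carrying ring subunit, was at 4.81, 6.99 and 3.82 RPKM. It rests on 123, 210 and 197 reads and has a pseudogene, Atp6v0c-ps2, listed at 0.0799 RPKM or less, so its level is uncertain. In the V1 sector, Atp6v1a, for the subunit that splits ATP, had 69.6, 49.5 and 43.3 RPKM and was highest in 4T1-TB, at a difference of 0.67 from NTB. Its partner Atp6v1b2 had 69.9, 97.2 and 64.5 RPKM, and Atp6v1h, for the regulatory subunit H, had 26.6, 26.0 and 23.4 RPKM. Of the accessory proteins, Atp6ap1 had 56.2, 81.2 and 57.1 RPKM and Atp6ap2, also known as the prorenin receptor gene, had 145, 124 and 124 RPKM.

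Several V-ATPase subunits are encoded by more than 1 gene, and 1 form of each held most of the transcript. Tcirg1, not in the set and given after its value was seen, was the main subunit a gene at 69.1 RPKM in 4T1-TB, 78.0 in IRF8-deficient and 72.0 in NTB. It made up 76.0%, 75.7% and 80.5% of the summed RPKM of the subunit a genes, while Atp6v0a1 took 7.34% in 4T1-TB, 12.6% in IRF8-deficient and 6.06% in NTB. Atp6v0a2 took the remainder, and Atp6v0a4 was listed at 0 in all 3 libraries. Atp6v1b1, the kidney form of subunit B, Atp6v1e2, the testis form of subunit E, and Atp6v1c2 and Atp6v1g3 were also listed at 0. Atp6v0d2, the form of osteoclasts, stayed at or below 0.0459 RPKM in every library, and the osteoclast fusion genes Dcstamp and Ocstamp were listed at 0. Other genes of the osteoclast marker list were expressed. Nfatc1 was at 5.37, 11.3 and 5.39 RPKM and Acp5 at 4.07, 5.19 and 3.56 in 4T1-TB, IRF8-deficient and NTB. Mmp9, which is also in the mature neutrophil list, was at 29.8, 149 and 1.91 RPKM in that order. Of the other V-ATPase subunit genes, 17 in number, 10 were compared and 0 were called, 8 were above 0 in 4T1-TB and 9 in IRF8-deficient against NTB, and their medians were 0.19 and 0.27 (0.04 and -0.24 with scaling by summed reads). Atp6v1e1, for a stalk subunit, had 82.8, 125 and 76.4 RPKM, and Atp6v1d, for the rotor, had 35.6, 58.9 and 30.8 RPKM, in 4T1-TB, IRF8-deficient and NTB.

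**Figure D5:**
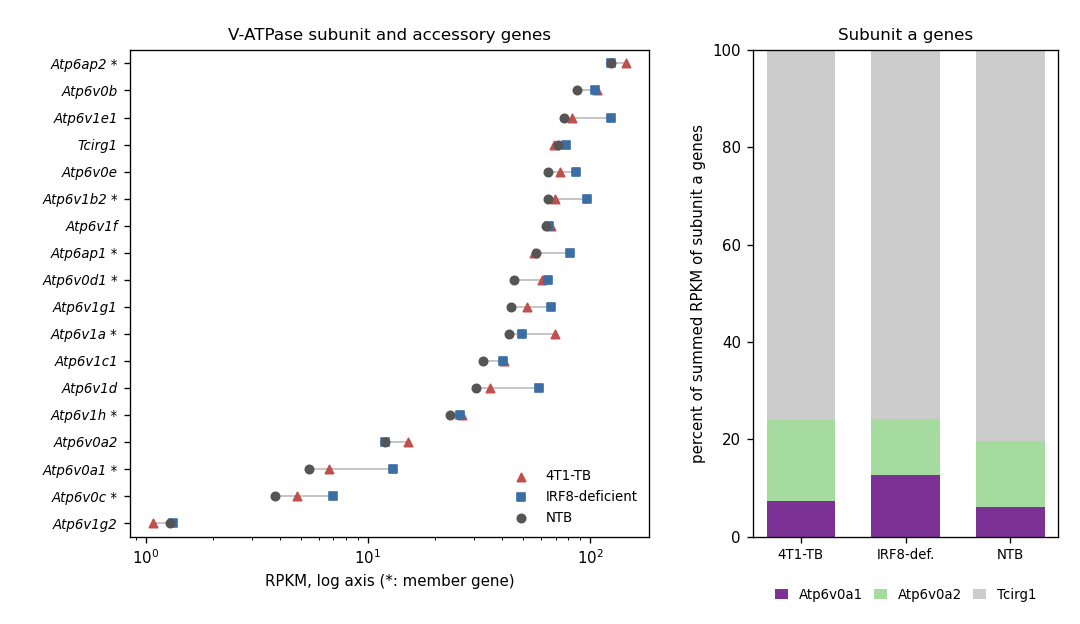
Left, RPKM (log axis) of V-ATPase genes in the 4T1-TB, IRF8-deficient and NTB libraries, with a star for the 8 genes of the set. Right, shares of the subunit a genes in their summed RPKM, where Tcirg1 holds 75.7% to 80.5% and Atp6v0a1 6.06% to 12.6%.

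Beyond the set, 103 other lysosome genes were taken as a list, of which 88 were compared. In 4T1-TB against NTB 2 were called higher (2.27%, beside 1.67% of all genes) and 0 lower (beside 1.35%), and the median difference was 0.05. Slc11a1, which encodes the phagosomal metal transporter NRAMP1, was at 1.90 RPKM in 4T1-TB, 3.52 in IRF8-deficient and 0.320 in NTB, so it was called higher in both. Laptm4b, a gene of a late endosomal membrane protein, was at 8.81, 0.989 and 3.19 RPKM, higher in 4T1-TB and lower in IRF8-deficient than in NTB. In IRF8-deficient against NTB 6 of the 88 were called higher (6.82%, beside 8.78% of all genes) and 2 lower (2.27%, beside 5.73%), with a median of 0.06, so both shares lie below the background. The higher ones were Slc11a1, Mlst8, a subunit of mTOR complexes, Igf2r, the mannose 6-phosphate receptor that delivers hydrolases, Cln3, Hgsnat and Lamtor1, a Ragulator subunit that anchors mTORC1 at lysosomes. Igf2r was at 10.6 RPKM in 4T1-TB, 24.3 in IRF8-deficient and 7.40 in NTB, and Mlst8 at 10.4, 38.0 and 11.0. Lamtor1 had 38.5, 69.0 and 32.7 RPKM, Hgsnat, for an acetyltransferase of heparan sulfate breakdown, 7.19, 17.0 and 6.70, and Cln3 5.31, 14.9 and 5.48. The lower ones were Laptm4b and Rragb, a Rag GTPase gene at 0.750, 0.252 and 2.31 RPKM. In IRF8-deficient against 4T1-TB 7 were called higher (7.95%, beside 8.83% of all genes) and 2 lower (2.27%, beside 7.07%), with a median of 0.14. These values depend on the scaling. With summed reads the median of the 88 was -0.42 in IRF8-deficient against NTB, with 22 above 0. Against 4T1-TB it was -0.22, with 25 above 0. These medians were 0.07 and 0.10 above those of all genes. The calls of the 88 were not recounted on that scale.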

How the data were processed

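RNA was measured in flow-sorted granulocyte progenitors, with 1 library in each of 3 groups, taken from the mouse model in the labels. Per the labels' protocols TRIzol was used for RNA and a standard Illumina protocol for the libraries. The deposited values are RPKM, made by the authors for 24421 symbols. The build is mm10, and the tools named are edgeR 3.12.1, HTSeq 0.6.1, Picard 1.97, TopHat2 2.0.13, cutadapt 1.2.1 and CASAVA 1.8.2, without roles, per the submitters' processing notes. The annotation and the strandedness of counting are unknown from the sources used, so genes that share exon bases with a neighbour are uncertain.

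RPKM values of a gene in different libraries stand in ratios of whole numbers, from which whole reads were recovered for 15158 genes. Implied lengths were within 0.8 to 1.25 of the GENCODE M21 exon length for 91.2% of 14553 genes and for 46 of the 49 lysosomal genes. This match is partly built in and is no independent check of the reads. The same exon lengths were used to set the library size and, for genes with few reads, to choose the multiple of the whole numbers. The library sizes behind the deposited RPKM were 0.934 times the summed reads in 4T1-TB, 0.717 times in IRF8-deficient and 1.04 times in NTB. Reads served for depth, intervals and alternatives only. Rn45s, a ribosomal RNA gene, took 6.22%, 13.6% and 1.76% of reads in that order.

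Differences on log2(RPKM + 1) were taken over genes that reached 1 RPKM in any library. A difference of 1 or more in size was a call. With no replicates no test was run. Values are printed for genes called in any comparison, the 8 highest, the regulators and the V-ATPase genes, and by examples for the rest. The members and lists were chosen with earlier results of these data known. Coordinates are from GENCODE M21 on mm10, and promoter letters from RefSeq on GRCm38.p6. The read recovery was run on simulated data with the true gene lengths given as the reference. That run therefore could not show how the recovery does with reference lengths that are off. Alternatives changed the pseudocount, the filter, the scaling and the fold of a call, and 2 more were chosen after seeing the data. The tools were matplotlib 3.10.9, pandas 2.3.3, scipy 1.17.1 and numpy 2.4.6 under Python 3.11.15.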

Additional observations from a re-analysis of the deposited data

How the results depend on the processing

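No paired analysis was possible because each group has 1 library, and for the same reason none could be left out. Of 189 values for the 9 called genes under alternatives, 170 kept their sign and side of the threshold, 14 lost the call and 2 gained it. The other 3, none of them called, changed sign: Gaa in 4T1-TB against NTB (0.09) came to -0.02 without the 20 highest genes and -0.06 with summed reads, and Psap in IRF8-deficient against NTB (0.42) to -0.12 with summed reads. The gains were Cd63 in IRF8-deficient against NTB, at -1.07 without the 20 highest genes and -1.42 with summed reads. With a pseudocount of 5, 0 genes were called lower in 4T1-TB against NTB (0.197% of all genes), 1 higher in IRF8-deficient against NTB (4.94%) and 3 higher in IRF8-deficient against 4T1-TB (4.46%). Without the 20 highest genes in the scaling, the median differences from NTB were -0.06 in 4T1-TB and 0.10 in IRF8-deficient, and 3 genes were higher in IRF8-deficient than in 4T1-TB (7.65% of all genes). With summed reads the medians over the 47 genes then compared were -0.13 for 4T1-TB against NTB, -0.25 for IRF8-deficient against NTB and -0.18 for IRF8-deficient against 4T1-TB, because the median of all genes moved to -0.13, -0.50 and -0.33. The calls were then 1 higher and 4 lower in IRF8-deficient against NTB, and 3 higher in IRF8-deficient against 4T1-TB. A call at 1.5-fold gave 2 higher and 4 lower in 4T1-TB against NTB (4.37% and 4.97% of all genes), 8 and 4 in IRF8-deficient against NTB (17.4% and 16.7%), and 8 higher in IRF8-deficient against 4T1-TB (18.6%). A call at 4-fold gave 0 lower in 4T1-TB against NTB (0.0469%), 0 higher and 1 lower (Ctse) in IRF8-deficient against NTB (1.90% and 0.385%), and 1 higher (Ctsh) and 0 lower in IRF8-deficient against 4T1-TB (1.67% and 0.469%). A pseudocount of 0.1, other filters on low values, median ratio scaling, a call that needs a counting interval excluding 1, and leaving out genes that share over 10% of their exon bases left each count within 1.5 times its value. The last 2 were chosen after seeing the data. Depth limits the low genes most, since Ids rests on 155 reads and Tfeb on 153 in 4T1-TB.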
